A study of Mus musculus with 24 samples.

Results

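The genes of fatty acid synthesis, elongation and desaturation that SREBP-1 regulates were followed on 24 mouse cerebellum arrays: Srebf1, Acly, Acss2, Acaca, Fasn, Elovl6, Scd1, Scd2, Fads1 and Fads2. These are 10 of 22911 gene symbols on the array, and every probe whose transcript name maps to one of them was taken, which gave 17 of 56605 probes. The list is one of pathway membership, but it was drawn up with earlier results of these data known, so counts over it are descriptions and not independent evidence. The samples were total RNA of whole cerebellum from C57BL/6 mice at postnatal day 28, hybridised 1 per array to single-colour Agilent arrays. Each level below is the log2 of a probe's processed intensity minus the 75th percentile of its array, so a level of 0 is the 75th percentile, and no probe's level is set against another probe's.

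The knockouts were made by crossing mice with a Cre recombinase under the nestin promoter, which is active in neural progenitors, to mice carrying floxed Derl1 or floxed Derl2, and the controls were labelled Derlin-1 flox/flox or Derlin-2 flox/flox. Both Derlins sit in the membrane of the endoplasmic reticulum and help to dispose of misfolded proteins. Injections into the abdominal cavity were given daily from postnatal day 14 to day 28, of either water, the vehicle, or 200 mg/kg 4-phenylbutyrate (4PBA), a small molecule that assists protein folding. The Derlin-2 line and a first Derlin-1 series carry replicate numbers 1 and 2 and hold control and knockout arrays with vehicle and with 4PBA. A second Derlin-1 series carries the letters a and b, and its arrays without 4PBA name no vehicle, so they are called untreated. This made 12 groups of 2 arrays. In the comparisons, "without 4PBA" joins the numbered vehicle arrays and the lettered untreated arrays of the Derlin-1 line, and each change is the mean of the changes in the numbered and lettered series. The labels do not say whether the 2 arrays of a group came from separate litters or extractions, so p-values measure only the spread between these arrays, whose number limits the precision. In bulk tissue, fewer cells of a type and less RNA per cell cannot be told apart.

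Fatty acids are built from acetyl-CoA, which ATP citrate lyase (Acly) makes from citrate and acetyl-CoA synthetase 2 (Acss2) makes from acetate. Acetyl-CoA carboxylase (Acaca) turns acetyl-CoA into malonyl-CoA, fatty acid synthase (Fasn) assembles the chain, Elovl6 lengthens it, the stearoyl-CoA desaturases Scd1 and Scd2 place its first double bond, and Fads1 and Fads2 desaturate polyunsaturated chains. SREBP-1, the product of Srebf1, is a precursor in the endoplasmic reticulum membrane, and a part cut from it activates many of these genes. Myelinating cells of the brain make much of their lipid locally.

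The promoter windows of Srebf1, Fasn, Acss2 and Acly are shown because all of these genes are textbook targets of the same regulator. In Derlin-1 knockouts without 4PBA, Srebf1 was higher, Acss2 and Acly were lower and Fasn did not pass the test, as given below. The RefSeq tables (GRCm38.p6) held 9 windows for 7 of the 10 genes, and no window for Scd1, Scd2 or Fads1. The 250 bases before each start were searched on both strands for TCACNCCAC (a sterol regulatory element), CACGTG (an E-box) and CCAAT (an NF-Y box). Neither the sterol regulatory element nor the E-box was present in any of the 9 windows. They stood in 1.05% and 6.02% of 32851 windows of the same length. The NF-Y box stood in 33.8% of those windows and in 4 of the 9, which were windows 1 and 3 of Srebf1 and those of Fasn and Acss2. Window 2 of Srebf1, which is not shown, held none. Capitals mark the NF-Y boxes, written ATTGG where they lie on the other strand, and the 8 capitals together in Fasn hold 2 overlapping boxes. Acly, whose window held no match, is shown beside them. A match is a description of the letters, and the absence of one says only that these letters are not in this window.
Srebf1, window 1, chr11:60222582-60222831, minus strand: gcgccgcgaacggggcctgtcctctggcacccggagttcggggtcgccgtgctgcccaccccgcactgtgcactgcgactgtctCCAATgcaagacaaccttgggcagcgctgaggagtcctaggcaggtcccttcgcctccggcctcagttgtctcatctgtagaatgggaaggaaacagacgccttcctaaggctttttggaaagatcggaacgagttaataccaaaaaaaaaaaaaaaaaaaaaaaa
Srebf1, window 3, chr11:60210472-60210721, minus strand: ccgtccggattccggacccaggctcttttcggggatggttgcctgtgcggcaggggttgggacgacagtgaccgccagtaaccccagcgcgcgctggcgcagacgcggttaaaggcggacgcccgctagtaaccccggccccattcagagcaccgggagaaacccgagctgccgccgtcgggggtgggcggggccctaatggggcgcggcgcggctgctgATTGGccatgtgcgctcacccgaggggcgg
Fasn, chr11:120824548-120824797, minus strand: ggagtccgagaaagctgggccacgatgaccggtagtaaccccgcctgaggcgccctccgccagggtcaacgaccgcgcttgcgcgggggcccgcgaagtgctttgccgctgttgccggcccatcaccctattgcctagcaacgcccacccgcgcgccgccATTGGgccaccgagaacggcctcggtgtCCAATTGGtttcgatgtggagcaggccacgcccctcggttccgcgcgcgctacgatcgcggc
Acss2, chr2:155517793-155518042, plus strand: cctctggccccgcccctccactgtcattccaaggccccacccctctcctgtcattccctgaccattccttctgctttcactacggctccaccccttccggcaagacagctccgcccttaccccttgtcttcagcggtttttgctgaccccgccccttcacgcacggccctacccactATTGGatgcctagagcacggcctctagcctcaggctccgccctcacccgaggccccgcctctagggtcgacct
Acly, chr11:100528001-100528250, minus strand: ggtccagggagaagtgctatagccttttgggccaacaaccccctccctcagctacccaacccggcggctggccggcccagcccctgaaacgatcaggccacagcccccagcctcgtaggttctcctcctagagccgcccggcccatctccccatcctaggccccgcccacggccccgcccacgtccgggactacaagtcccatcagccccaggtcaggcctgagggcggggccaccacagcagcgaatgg

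All 17 probes passed the filter on dim probes, and 16 of them were well above background on all 24 arrays. The exception was the Acaca probe A_55_P2084703, which was well above background on 9 arrays. Over the whole array, 38115 probes passed the filter and were fitted together. Between 57.7% and 68.4% of the spots of an array were well above background, and no spot was saturated. Each of the 3 slides held 8 arrays of 1 series, and the lettered slide was scanned on another day. On every slide the controls and the knockouts lay in different columns and the arrays with and without 4PBA in different rows, so position on the slide and group cannot be told apart. Of the deleted genes, the Derl2 probe A_51_P498831 was lower on 3 of the 4 Derlin-2 knockout arrays, at 0.48, 0.18 and 0.24, than on the Derlin-2 controls, at 1.40 to 1.58. The array labelled Derlin-2 knockout vehicle 1 read 1.72, above those controls. The Derl1 probe A_51_P504522 overlapped between knockouts and controls, and the files do not place it relative to the floxed exons, so it checks no label. In the lettered Derlin-1 series, array a of the untreated knockouts lay farthest from the other arrays in several of the genes below, and array b of the knockouts with 4PBA had a summed microglia marker level of 13.1, just below the 13.5 to 17.3 of the Derlin-1 controls. Derl3, another Derlin, whose probe A_55_P2743349 lay at -3.14 to -1.69 on the 12 control arrays, read -2.27 on that array b and 0.17 on array a beside it. The other 6 Derlin-1 knockout arrays read -0.63 to 0.37. In the Derlin-2 knockouts Derl3 read -1.85 on vehicle 1, -0.61 on vehicle 2, and -1.93 and -1.96 with 4PBA, so vehicle 1 lay above its controls in Derl3 as well as in Derl2. Values without the array concerned are given for the called genes of the 10 and of the wider pathway, for Srebf1 and for the genes named for 4PBA in the Derlin-1 knockouts, and for Srebf1, Acss2 and Fads2 in the Derlin-2 knockouts with vehicle.

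Derlin-1 knockout without 4PBA. Of the 17 probes, 6 changed against the controls in the limma fit at a Benjamini-Hochberg adjusted p under 0.05 over all probes: 1 was higher and 5 were lower. Over the whole array 5.09% of probes were called in this comparison, 2.53% higher and 2.55% lower. An unadjusted p under 0.05 was reached by 8 of the 17, against 20.3% of all probes. The 1 gene that rose was Srebf1, and the 4 genes that fell were Acly, Acss2, Scd1 and Fads1. The groups did not overlap within either slide for these same 6 probes, against 19.0% of all probes. Fasn, Acaca, Elovl6, Scd2 and Fads2 did not pass the test. Over the 10 genes, with the brightest probe of each, 8 changes were below 0 and the median change was -0.11 on the log2 scale, against -0.01 over all genes. It was -0.07 on the numbered slide and -0.24 on the lettered slide, -0.23 with median scaling, which shifts all changes down, and -0.04 with quantile normalization, and the SD of this median between replicate arrays was 0.09.

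Srebf1, the regulator, read 2.11 and 2.54 with its probe A_51_P401921 on the numbered control vehicle arrays and 2.82 and 3.02 on the knockout vehicle arrays. In the lettered series it read 2.82 and 2.72 on the untreated controls and 3.99 and 3.16 on the untreated knockouts. Every knockout array was above both controls of its slide, and array a of the lettered knockouts stood highest of all 24. The level rose by a log2 change of 0.70 ± 0.17 (SE; 4 knockout and 4 control arrays), which is 1.63-fold, with an adjusted p of 0.0319 (limma). The numbered series alone gave 0.59 and the lettered series 0.81, and these changes were not shown to differ (0.22 ± 0.34 SE, adjusted p 0.985, limma). Without array a of the lettered knockouts the lettered change was 0.39 and the difference -0.20, so that array set which series had the larger change. Without it Srebf1 gave 0.49 over both series (adjusted p 0.138, limma); over all alternatives the adjusted p ranged from 0.00592 to 0.424.

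Of the genes that supply acetyl-CoA, Acss2 has 2 probes and both fell. The probe A_66_P108725 read 1.68 and 1.69 on the numbered controls and 1.35 and 1.38 on the numbered knockouts. On the lettered slide it read 1.68 and 1.37 on the controls and 0.56 and 1.04 on the knockouts. The knockouts were below the controls on both slides, and array a of the lettered knockouts was the lowest of the 24 arrays. The level fell by 30.4% (log2 change -0.52 ± 0.12 SE, adjusted p 0.0241, limma). The probe A_55_P1988795 gave a log2 change of -0.44 ± 0.10 (SE) and an adjusted p of 0.0266 (limma). Its 4 knockout arrays, at -2.28, -2.15, -2.22 and -1.84, were likewise each below both controls of their slide, which read -1.82 and -2.09 on the numbered slide and -1.32 and -1.51 on the lettered slide.

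Acly, which makes acetyl-CoA from citrate, read 4.07 and 4.11 on the numbered controls with its probe A_55_P2025954, and 3.75 and 3.87 on the numbered knockouts. In the lettered series the controls read 3.79 and 3.74 and the knockouts 3.32 and 3.55. The groups did not overlap on either slide. The level fell by 19.1% (log2 change -0.31 ± 0.07 SE, adjusted p 0.0312, limma), with -0.28 on the numbered slide and -0.33 on the lettered slide. The second probe of the gene, A_55_P2082914, which is named for another transcript, gave -0.21 ± 0.15 (SE) with an adjusted p of 0.496 (limma). Its change was -0.56 on the numbered slide and 0.14 on the lettered slide, a difference that did not pass its test (0.69 ± 0.30 SE, adjusted p 0.985, limma).

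The genes of chain assembly gave small values. Fasn (A_51_P321126) ranged from 4.89 to 5.26 over all 24 arrays. Its 95% interval for the change in Derlin-1 knockouts ran from -0.24 to 0.11 (log2 change -0.06 ± 0.08 SE, adjusted p 0.738, limma). For Acaca the brightest probe, A_55_P2019058, ranged from 2.41 to 2.66 over the 24 arrays and changed by -0.02 ± 0.07 (SE) with an adjusted p of 0.921 (limma). The other 3 Acaca probes, A_52_P318040, A_55_P2084703 and A_55_P2121392, gave changes between 0.05 and 0.30, with adjusted p-values from 0.712 to 0.854 (limma). Elovl6 (A_65_P20015), which elongates the chain after its synthesis, gave 0.02 ± 0.11 (SE) and an adjusted p of 0.948 (limma), with an interval from -0.21 to 0.25.

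Among the desaturases, Scd1 and Fads1 fell. Scd1 (A_52_P682382) read 1.87 and 1.78 on the numbered controls and 1.23 and 1.32 on the numbered knockouts. On the lettered slide it read 2.01 and 2.04 on the controls and 1.60 and 1.70 on the knockouts. The gap between the groups was wider than the spread within any of them on both slides, and the level fell by 27.4% (log2 change -0.46 ± 0.11 SE, adjusted p 0.0266, limma). Scd2 (A_51_P129464), the other stearoyl-CoA desaturase of the brain, gave -0.17 ± 0.07 (SE) with an adjusted p of 0.180 (limma). Its numbered controls, at 6.24 and 6.42, overlapped the numbered knockouts, at 6.20 and 6.30. Its lettered controls, at 6.17 and 6.10, lay above the lettered knockouts, at 5.81 and 5.95.

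Fads1, the delta-5 desaturase, read 0.55 and 0.45 on the numbered controls and 0.27 and 0.21 on the numbered knockouts with its probe A_51_P358112. The lettered controls read 1.44 and 1.05 and the lettered knockouts 0.38 and 0.69. The groups did not overlap on either slide, and the level fell by 28.6% (log2 change -0.49 ± 0.11 SE, adjusted p 0.0270, limma). On the numbered slide the change was -0.26 and on the lettered slide -0.71, and the difference did not pass its test (-0.45 ± 0.23 SE, adjusted p 0.985, limma). Without array a of the lettered knockouts the lettered change was -0.56 and the difference -0.30. The second Fads1 probe, A_55_P2897923, gave -0.40 ± 0.14 (SE) with an adjusted p of 0.105 (limma). Fads2, the delta-6 desaturase, gave -0.03 ± 0.10 (SE) with the probe A_51_P364609 and -0.10 ± 0.14 (SE) with A_66_P130115, at adjusted p-values of 0.923 and 0.782 (limma).

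**Figure D1:**
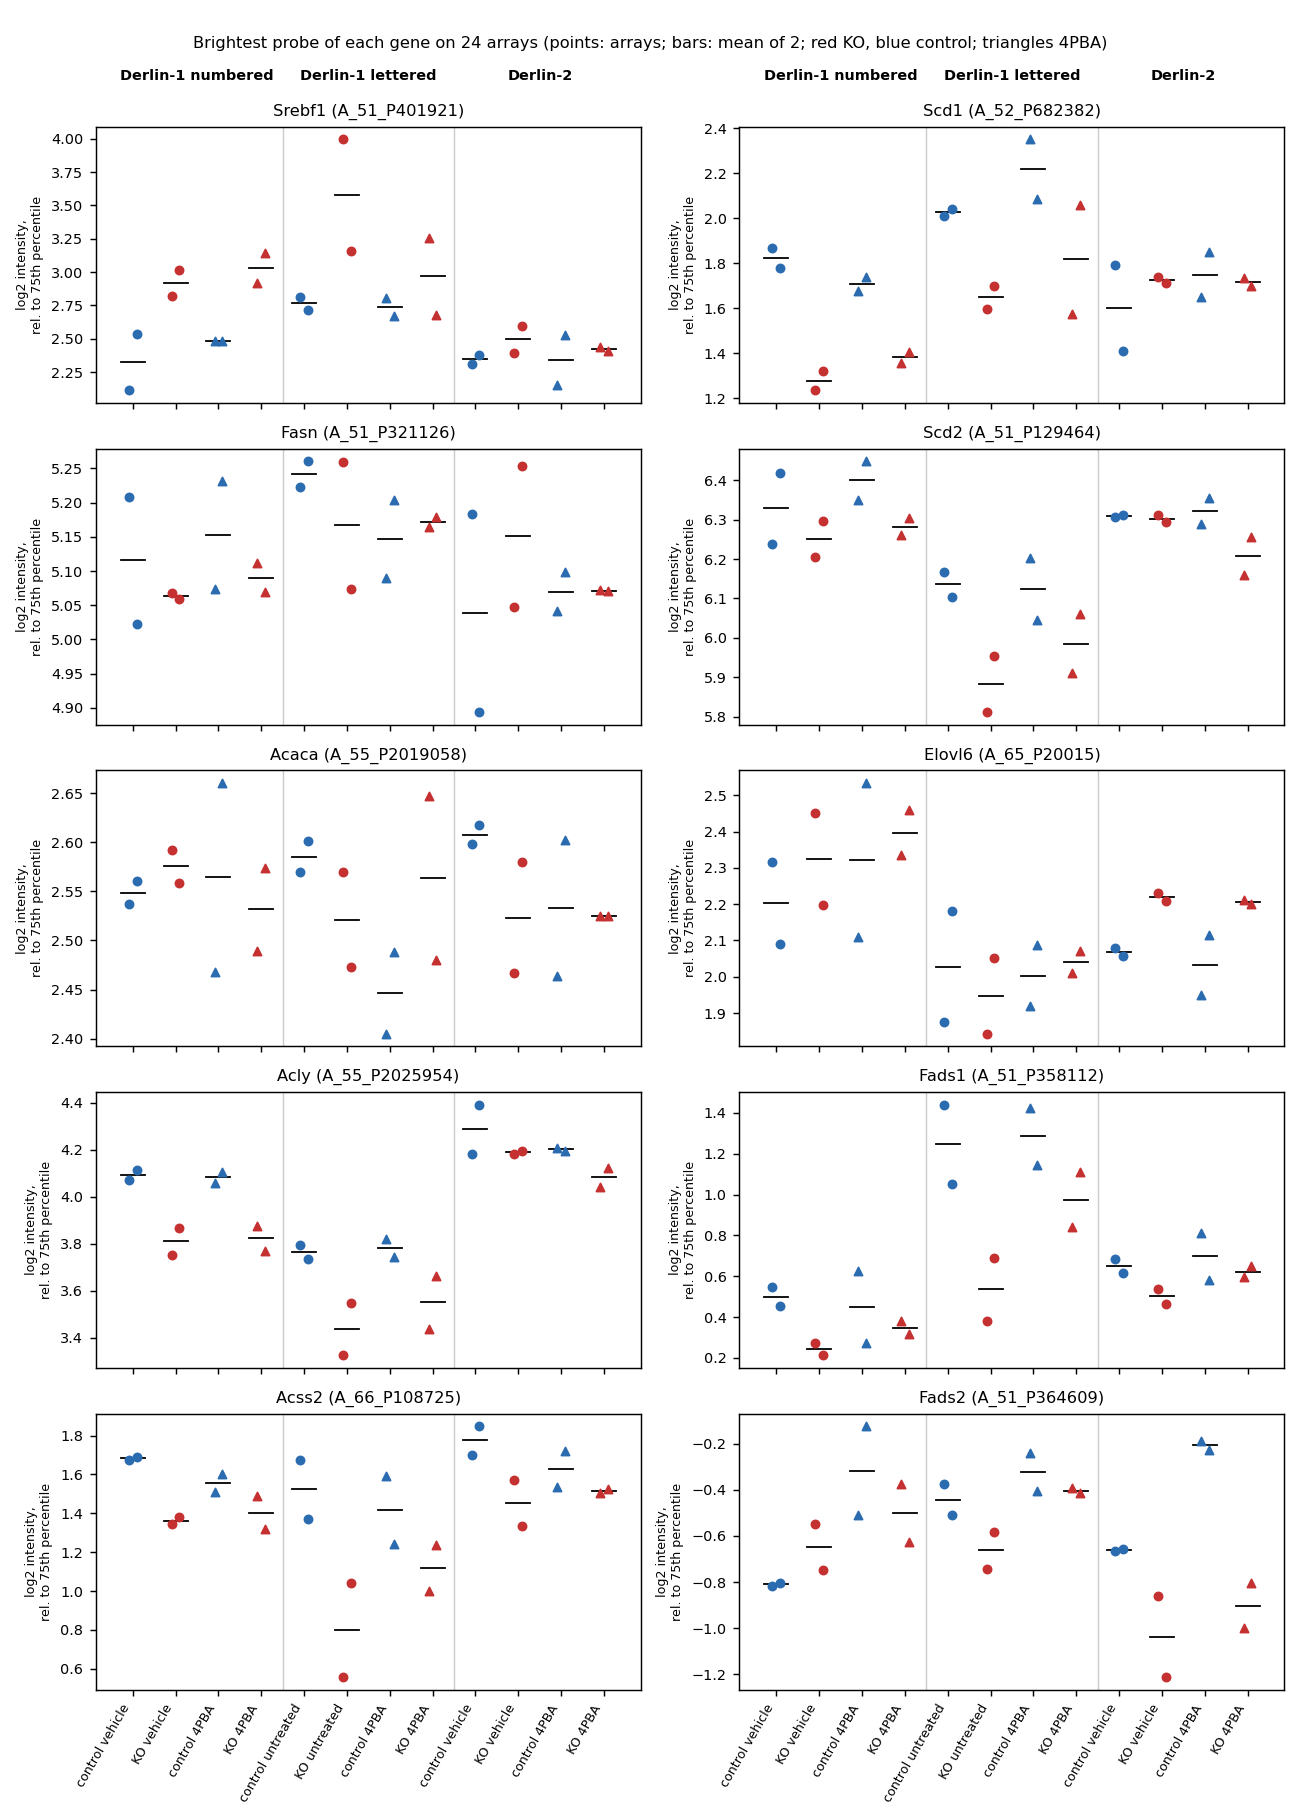
The level of the brightest probe of each gene (log2 intensity relative to the 75th percentile of the array, a separate scale for each gene) is plotted for the 24 arrays in 12 groups; points are arrays, bars are means of 2 arrays, red marks knockouts, blue controls, and triangles 4PBA. Srebf1 is higher, and Acly, Acss2, Scd1 and Fads1 are lower, on the Derlin-1 knockout arrays without 4PBA than on the controls of the same slide.

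These 6 calls depended on most of the arrays. No probe was called in either series alone (limma; 4 numbered and 8 lettered at an unadjusted p under 0.05), in a fit of the 8 arrays compared (7), or without any 1 of 5 arrays: control vehicle 1, knockout vehicle 1, knockout vehicle 2, lettered control a or lettered knockout a (6 to 8). Without control vehicle 2 the count was 2, and without lettered control b it was 3. With arrays scaled to the median in place of the 75th percentile, which shifts the median of all probes by -0.11, both Acss2 probes and Scd1 were called. With dim probes kept in the fit 1 probe was called. Without lettered knockout a, the 5 probes that fell gave -0.40 and -0.34 for Acss2, -0.25 for Acly, -0.44 for Scd1 and -0.41 for Fads1, at adjusted p-values of 0.112 to 0.144 (limma). Over all alternatives the adjusted p-values of these 5 probes ran from 0.00768 to 0.674. The sign of each of the 6 changes was the same under all alternatives. Leaving out arrays or 1 series could not have reversed it, because the groups did not overlap within either slide. Filters leave the changes as they are, so this says little beyond the scaling and the background correction. Between the lettered and the numbered series 0 of 17 changes differed (limma; 1 at an unadjusted p under 0.05, the second Acly probe), while 0.0131% of all probes were called and 3.29% had such a p.

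**Figure D2:**
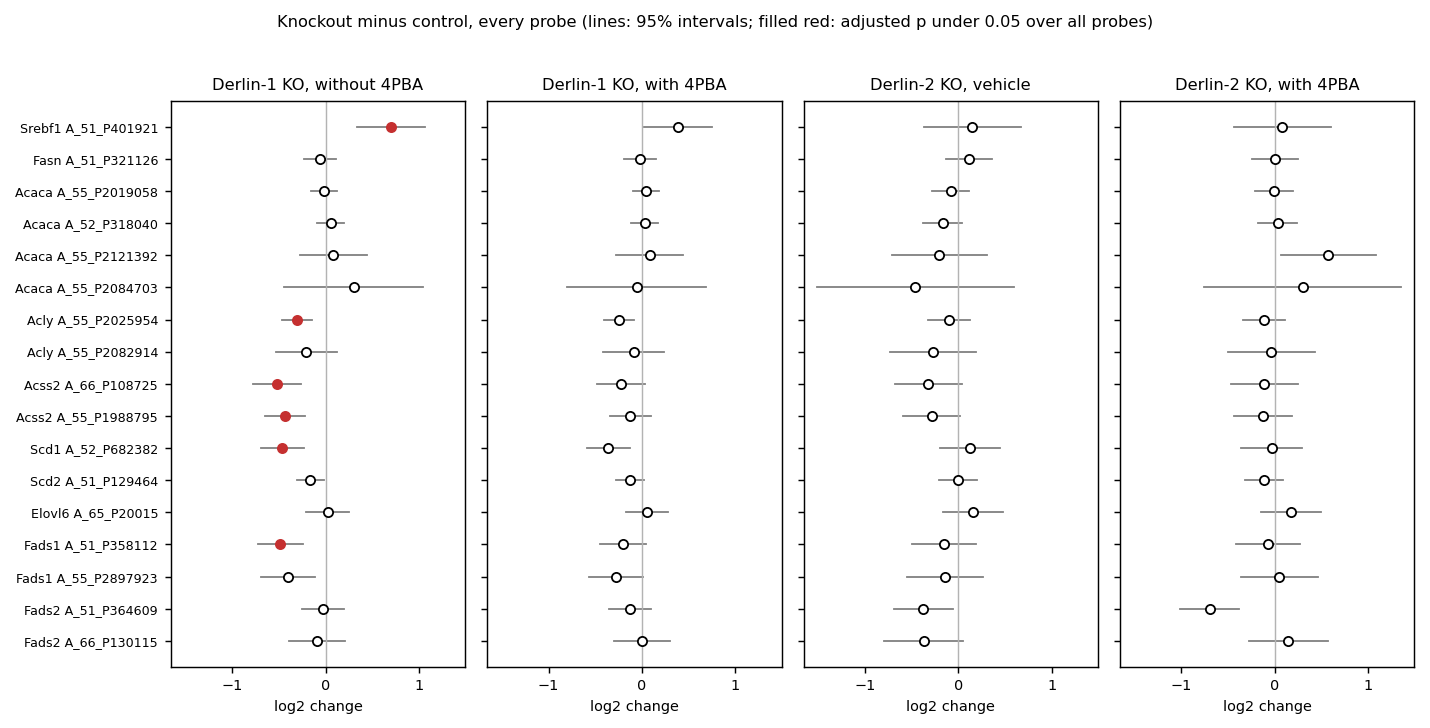
The log2 change between knockouts and controls is plotted for all 17 probes in 4 comparisons, with 95% intervals from limma; filled red points have an adjusted p under 0.05 over all probes of the array. The 6 filled points lie in the Derlin-1 comparison without 4PBA: Srebf1 to the right of 0, and Acly, both Acss2 probes, Scd1 and Fads1 to the left.

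Markers of other cells moved in the same comparison. Of 10 microglia markers 8 rose, with a median change of 1.43, and their summed linear level ran from 13.5 to 17.3 on the Derlin-1 controls without 4PBA and from 29.1 to 35.1 on the knockouts. Of 9 granule neuron markers 2 fell, Neurod1 and Gabra6, with a median over the list of -0.31, and the summed level ran from 445 to 453 on the numbered controls against 345 to 347 on the knockouts, and from 337 to 346 against 268 to 273 in the lettered series. Of 8 markers of astrocytes and Bergmann glia 1 rose, Gfap (1.25, adjusted p 0.00497, limma), with 4 above and 4 below 0 and a list median of 0.02. Of the oligodendrocyte markers 0 of 10 were called (limma; 3 at an unadjusted p under 0.05). Their summed level ran from 331 to 353 on the numbered controls and 346 to 368 on the knockouts, with a list median of 0.09, and from 296 to 366 against 261 to 309 in the lettered series, with a list median of -0.23. Of the defining markers of lipid-making tissues outside the brain, Adipoq, Plin1 and Apoa1 were well above background on 0 of 24 arrays, Alb on 2 and Cidec on 5 (Cidec 0.37, adjusted p 0.281, limma). The choroid plexus marker Ttr, which dissection can carry along, ranged from 0.49 to 7.81 over the arrays. Of 10 Purkinje cell markers 0 were called (limma, 2 at an unadjusted p under 0.05). Their list median was 0.03 on the numbered slide and -0.15 on the lettered slide. Their sum ran from 898 to 922 on the numbered controls against 918 to 923 on the knockouts. In the lettered series it ran from 769 to 882 against 697 to 733. The lettered astrocyte sum ran from 147 to 177 against 144 to 145, with a list median of -0.09. The part of microglia, astrocytes, oligodendrocytes, granule neurons and Purkinje cells in the changes of the 5 genes was not tested. This holds also for the falls of Acss2 and Fads1 on the lettered slide.

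Derlin-1 knockout with 4PBA. In mice given 4PBA, 0 of the 17 probes were called between Derlin-1 knockouts and controls (limma), and 3 had an unadjusted p under 0.05; over the array 0.0630% of probes were called and 9.82% had such a p. The groups did not overlap on either slide for 3 probes, those of Acly (A_55_P2025954), Acss2 (A_66_P108725) and Scd1, against 5.78% of all probes. Srebf1 read 2.49 on both numbered controls and 2.92 and 3.14 on the numbered knockouts. In the lettered series it read 2.81 and 2.67 on the controls and 3.26 and 2.68 on the knockouts. The numbered groups were apart and the lettered groups overlapped, because array b of the lettered knockouts with 4PBA lay at the level of its controls. The log2 difference for Srebf1 was 0.39 ± 0.17 (SE, adjusted p 0.479, limma), which did not pass the test. Over all alternatives this difference ran from 0.23 to 0.54.

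Scd1 read 1.67 and 1.74 on the numbered controls and 1.36 and 1.41 on the numbered knockouts with 4PBA. On the lettered slide the controls read 2.35 and 2.09 and the knockouts 1.58 and 2.06, so array b again lay near the controls. The log2 change was -0.36 ± 0.11 (SE; adjusted p 0.282, limma). For Acly the numbered controls read 4.06 and 4.11 and the knockouts 3.87 and 3.77, and the lettered controls read 3.82 and 3.74 and the knockouts 3.44 and 3.66. The groups did not overlap on either slide, and the log2 change was -0.25 ± 0.07 (SE; adjusted p 0.289, limma). Acss2 gave -0.23 and -0.12 with its 2 probes and Fads1 gave -0.21 and -0.28, at adjusted p-values from 0.536 to 0.782 (limma).

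In this comparison 0 of 10 microglia markers were called (limma; 8 at an unadjusted p under 0.05), with a median change of 0.88. Their summed level was 13.1 on array b of the lettered knockouts, against 24.7 to 30.1 on the other 3 knockout arrays and 13.8 to 16.8 on the controls. Of 9 granule neuron markers 8 were lower, with a median of -0.21 (0 called by limma; 5 at an unadjusted p under 0.05), and of 10 oligodendrocyte markers 9 were lower, with a median of -0.19 (0 called; 2 at such a p). The granule neuron sum ran from 411 to 425 on the numbered controls against 324 to 351 on the knockouts, and from 316 to 335 against 254 to 346 in the lettered series. The oligodendrocyte sum ran from 321 to 394 against 322 to 334, and from 306 to 332 against 276 to 297. Their part in the values of Scd1 and Acly was not tested. Without array b the number of called probes over the whole array went from 24 to 1079 of 38109, with the lone array left in its group assumed to vary like the other groups. Scd1 was 1 of them (-0.48, adjusted p 0.0202, limma), and Srebf1 gave 0.53 (adjusted p 0.157) and Acly -0.30 (adjusted p 0.0619). These were the lowest adjusted p-values over the alternatives, and the highest was 0.9997 for each of the 3 genes. Acss2 gave -0.29 and -0.19 and Fads1 -0.27 and -0.26 without that array, none of them called. The difference between the knockout changes with and without 4PBA did not pass the test for any of the 17 probes (limma; 1 probe at an unadjusted p under 0.05, against 2.27% of all probes; 0.0315% of all probes called). For Srebf1 this difference was -0.32, with a 95% interval from -0.83 to 0.20. It was -0.05 on the numbered slide and -0.58 on the lettered slide, -0.11 without array a of the untreated lettered knockouts and -0.17 without array b of those with 4PBA. For the Acss2 probe A_55_P1988795 the difference was 0.31, with an interval from 0.0046 to 0.62, and 0.22 and 0.25 without the same arrays. A knockout change that was called without 4PBA and not with it is therefore not shown to differ between them.

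Derlin-2 knockout. In mice given vehicle, 0 of 17 probes were called between Derlin-2 knockouts and their controls (limma; 1 at an unadjusted p under 0.05, against 6.96% of all probes), and over the array 0.121% of probes were called. Srebf1 read 2.31 and 2.38 on the controls and 2.396 and 2.60 on the knockouts, a change of 0.15 ± 0.24 (SE) with an adjusted p of 0.933 (limma). Acss2 gave -0.32 and -0.28 with its 2 probes (adjusted p 0.746 and 0.736, limma). For A_66_P108725 the controls read 1.70 and 1.85 and the knockouts 1.57 and 1.33, so the groups did not overlap; with 2 arrays a side this held for 12 of the 17 probes and for 47.0% of all probes. Scd1, which fell in the Derlin-1 knockouts, gave 0.12 ± 0.15 (SE) with an adjusted p of 0.906 (limma).

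The change of Scd1 differed between the numbered Derlin-1 and the Derlin-2 knockouts by -0.67 (95% interval -1.13 to -0.21), but this difference was not called over all probes (adjusted p 0.428, limma). For Srebf1 it was 0.44 (interval -0.29 to 1.18, adjusted p 0.738, limma). Of the 17 probes 0 passed this test between the lines (limma), and 2 had an unadjusted p under 0.05; over the array 0.0472% were called and 8.74% had such a p. The array labelled Derlin-2 knockout vehicle 1, whose Derl2 level was above its controls, read within the range of the other Derlin-2 arrays for Srebf1, Scd1 and Acss2. Knockout vehicle 2 alone stood 0.25 above the control mean for Srebf1, and the same difference was -0.44 for Acss2 (A_66_P108725) and -0.55 for Fads2 (A_51_P364609).

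With 4PBA, 0 of 17 probes were called in the Derlin-2 line (limma; 2 at an unadjusted p under 0.05, against 4.98% of all probes), where 0.171% of all probes were called. The groups did not overlap for 7 of the 17 probes, against 34.9% of all probes. Fads2 gave the widest gap with its probe A_51_P364609. The controls read -0.19 and -0.23 and the knockouts -1.001 and -0.80, which did not overlap. The log2 change was -0.70 ± 0.15 (SE; 2 knockout and 2 control arrays; adjusted p 0.120, limma). The same probe gave -0.37 ± 0.15 (SE) with vehicle (adjusted p 0.645, limma), where the controls read -0.67 and -0.66 and the knockouts -0.86 and -1.21. The second Fads2 probe, A_66_P130115, gave 0.15 ± 0.20 (SE) with 4PBA and -0.37 ± 0.20 (SE) with vehicle, or -0.20 with vehicle without the array labelled knockout vehicle 1. The 2 probes of the gene therefore had opposite signs with 4PBA. In the same comparison 9 of 10 oligodendrocyte markers were lower, with a median of -0.29 (0 called by limma; 3 at an unadjusted p under 0.05), and their summed level ran from 293 to 344 on the controls and from 255 to 297 on the knockouts. Of 10 Purkinje cell markers 8 were lower (median -0.14), and of 8 astrocyte and Bergmann glia markers 7 (median -0.13), with 0 called (limma). The Purkinje sum ran from 778 to 800 on the controls and 703 to 770 on the knockouts. The astrocyte sum ran from 174 to 176 and from 158 to 161. The list medians of microglia and granule neurons were -0.03 and -0.02. The part of these cell types in the lower Fads2 value was not tested.

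The Acaca probe A_55_P2121392 gave 0.57 ± 0.24 (SE) with an adjusted p of 0.910 (limma) in Derlin-2 knockouts with 4PBA. Its knockout arrays read -3.16 and -4.12 against -4.30 and -4.13 on the controls, so 1 array set the change. Without knockout 4PBA 2, which leaves that array alone, this probe was called (1.05, adjusted p 0.0300, limma, with the lone array assumed to vary like the other groups; up to 0.99999 over the alternatives). Without knockout 4PBA 1 it gave 0.09. The brightest Acaca probe gave -0.0081 ± 0.09 (SE) in the same comparison. Between the Derlin-2 knockout changes with and without 4PBA, 0 of 17 probes differed (limma; 1 at an unadjusted p under 0.05, the same Acaca probe, at 0.78 ± 0.34 SE), while 0.0893% of all probes were called and 4.84% had such a p.

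Effect of 4PBA. Comparing arrays with and without 4PBA, 0 of 17 probes were called by limma in any of the 4 backgrounds. The share of all probes called was 0.0341% in Derlin-1 controls, 0.0525% in Derlin-1 knockouts, 0.176% in Derlin-2 controls and 0.155% in Derlin-2 knockouts. The number of members with an unadjusted p under 0.05 was 1, 2, 2 and 0 in that order, against 2.25%, 5.37%, 6.32% and 7.67% of all probes. These comparisons share arrays with the knockout comparisons above.

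Fads2 gave the largest differences among the brightest probes of the controls. In Derlin-1 controls it read -0.82 and -0.80 with vehicle and -0.51 and -0.12 with 4PBA on the numbered slide, and -0.38 and -0.51 untreated and -0.24 and -0.41 with 4PBA on the lettered slide. The numbered groups were apart and the lettered ones overlapped, and the difference was 0.31 ± 0.10 (SE) with an adjusted p of 0.99997 (limma). In Derlin-2 controls it was 0.46 ± 0.15 (SE) with an adjusted p of 0.516 (limma), and the second Fads2 probe gave -0.22 ± 0.20 (SE) there. The second Fads1 probe, A_55_P2897923, gave -0.47 ± 0.19 (SE; adjusted p 0.698, limma) in the same controls, with -4.53 and -4.13 on the vehicle arrays and -4.95 and -4.65 on the 4PBA arrays. In Derlin-1 knockouts, Acss2 (A_55_P1988795, 0.27 ± 0.10 SE, adjusted p 0.904) and Fads1 (A_51_P358112, 0.27 ± 0.11 SE, adjusted p 0.909) had an unadjusted p under 0.05. Without lettered knockout a these became 0.17 and 0.20, and without lettered knockout b with 4PBA 0.20 and 0.21. In the same comparison 10 of 10 microglia markers were lower with 4PBA, with a median of -0.43, at -0.09 on the numbered slide and -0.81 on the lettered slide (0 called by limma; 3 at an unadjusted p under 0.05). Their part in the values of Acss2 and Fads1 was not tested. Srebf1 differed by 0.07 in Derlin-1 controls, -0.25 in Derlin-1 knockouts, -0.0029 in Derlin-2 controls and -0.07 in Derlin-2 knockouts, with intervals that all held 0. The Derlin-1 knockout value was 0.11 on the numbered slide and -0.61 on the lettered slide, -0.04 without lettered knockout a and -0.10 without lettered knockout b with 4PBA. The Derlin-2 knockout value was -0.17 without the array labelled knockout vehicle 1.

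**Figure D3:**
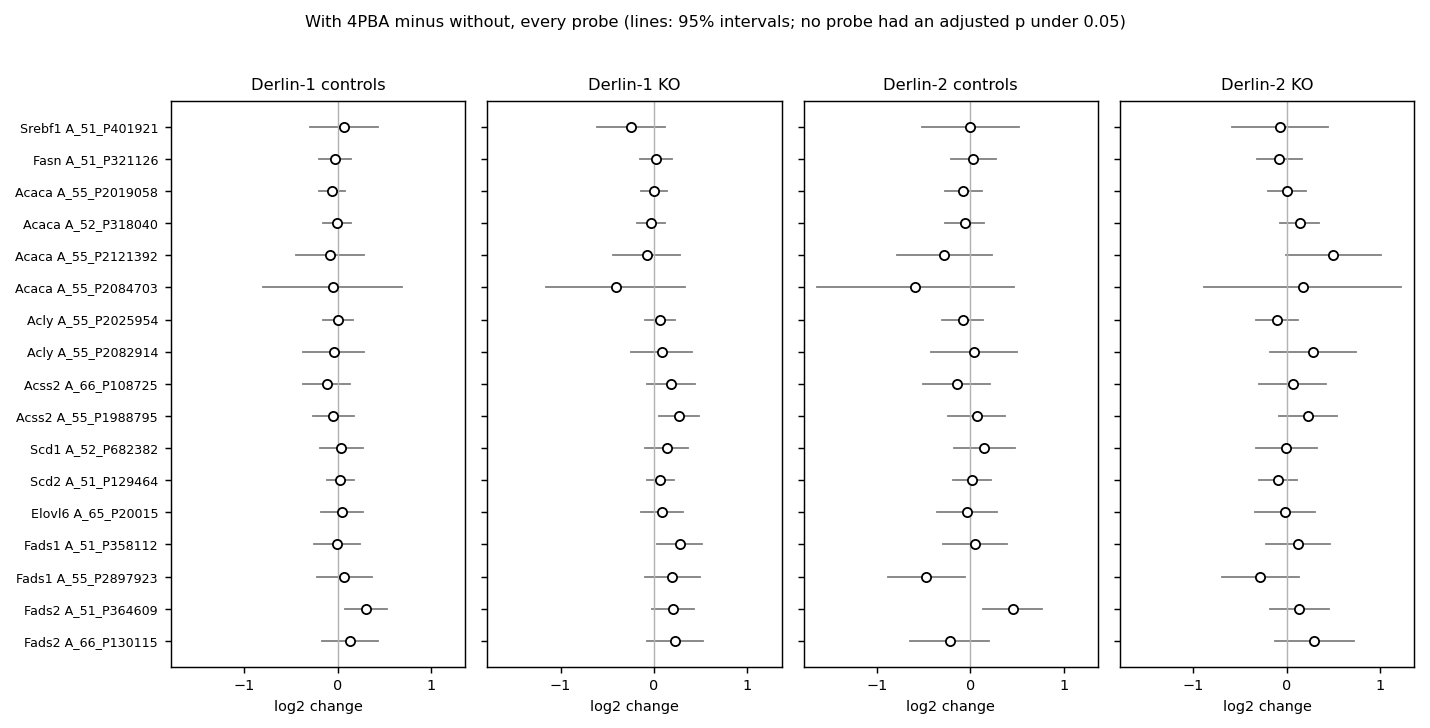
The log2 difference between arrays with and without 4PBA is plotted for all 17 probes in controls and knockouts of each line, with 95% intervals from limma. No probe has an adjusted p under 0.05; the Fads2 probe A_51_P364609 lies to the right of 0 in both sets of controls, at 0.31 and 0.46.

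Levels over all groups. Ordered by mean level (± SD, n = 2 arrays), Srebf1 was lowest in the numbered Derlin-1 control vehicle group, at 2.33 ± 0.30, and highest in the lettered Derlin-1 knockout untreated group, at 3.58 ± 0.59. The 4 Derlin-2 groups lay between 2.34 and 2.50 and could not be separated by their spread. The lettered Derlin-1 controls stood at 2.77 ± 0.07 untreated and 2.74 ± 0.09 with 4PBA, above the numbered controls with 4PBA at 2.49, and slide and scan day differ between them. The 4 Derlin-1 knockout groups took the top 4 places: 2.92 ± 0.14, 2.97 ± 0.41, 3.03 ± 0.15 and 3.58 ± 0.59, with neighbours closer than their spread. For Fads1 (A_51_P358112) the 2 lettered control groups were highest, at 1.25 ± 0.27 and 1.28 ± 0.20, and the numbered knockout vehicle group was lowest, at 0.24 ± 0.04.

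Srebf1 rose while Acly, Acss2, Scd1 and Fads1 fell in Derlin-1 knockouts without 4PBA, so their relation was also read within knockouts and within controls. Within the 12 knockout arrays, with each slide's knockout mean subtracted, Pearson's r of Srebf1 with Acss2 was -0.94 and Spearman's rho was -0.74. Without the 2 arrays farthest from the median of Srebf1, which were array a of the lettered knockouts and array b of those with 4PBA, r was -0.66 (10 arrays). For Fads1 and Acly the values within knockouts, -0.90 and -0.74, became -0.18 and 0.06 without these 2 arrays, so they rested on them. Scd1 and Scd2, both at -0.65, turned to 0.45 and 0.42. Fads2 and Elovl6, both at -0.60, became -0.56 and -0.14, while Fasn (0.44, then 0.57) and Acaca (0.42, then 0.37) were above 0 either way. Within the 12 control arrays, r with Srebf1 was 0.33 for Acss2, -0.17 for Fads1, 0.24 for Acly, -0.01 for Scd1, -0.29 for Fasn, 0.29 for Acaca, -0.12 for Elovl6, 0.26 for Fads2 and 0.82 for Scd2 (rho 0.78; 0.72 without the 2 farthest). These 9 genes in 2 classes of arrays made 18 relations, and arrays of a slide share its hybridisation and scan.

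**Figure D4:**
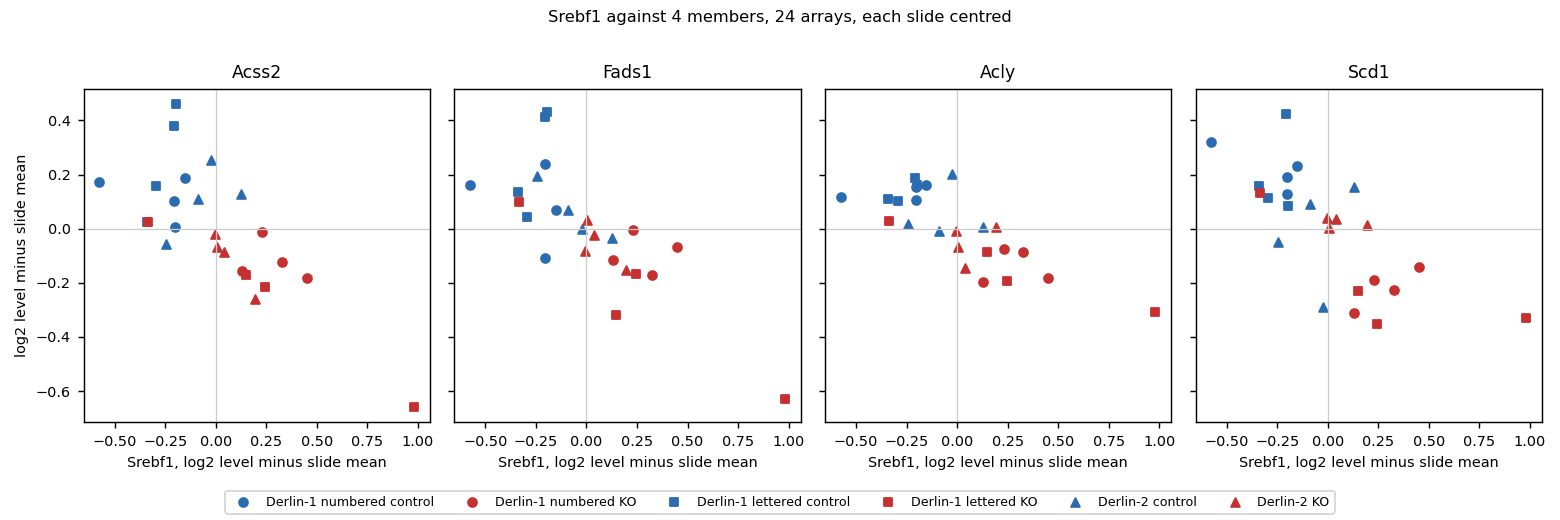
The level of Acss2, Fads1, Acly and Scd1 is plotted against that of Srebf1 (both log2, minus the mean of the slide) on 24 arrays; red points are knockouts, blue points controls, and the shape gives the series. Array a of the lettered knockouts lies alone at the lower right in the first 3 panels, and array b of the lettered knockouts with 4PBA lies among the controls on the Srebf1 axis.

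Over the 24 arrays, the 5 genes outside the 10 whose slide-centred level was most like Srebf1 among 14256 genes were Abca1, a cholesterol exporter (Pearson's r 0.92), Lgals3bp (0.91), Nbl1 (0.91), Lsp1 (0.91) and 9330179D12Rik (0.91). Without array a of the lettered knockouts these values ran from 0.84 to 0.91. The 5 genes most like the mean of the 10 genes were Tuba1a, an alpha-tubulin (0.87), Cyp51, an enzyme of cholesterol synthesis (0.86), Clic1 (0.86), Rab33a (0.85) and Tmem35a (0.85), or 0.80 to 0.84 without that array. The arrays fall into knockouts and controls, which all of these values include.

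The wider pathway was read from lists of 61 genes, of which 60 were tested. In Derlin-1 knockouts without 4PBA 2 rose and 0 fell (limma), against 2.53% of all probes higher and 2.55% lower. An unadjusted p under 0.05 was reached by 13 of the 60, near the 20.3% of all probes, and the median change was -0.06. Lpl, lipoprotein lipase, rose by 1.998 ± 0.47 (SE, adjusted p 0.0281, limma), with 1.93 on the numbered slide and 2.07 on the lettered slide. Hacd4, a dehydratase of very long chain fatty acid elongation, rose by 0.42 ± 0.11 (SE, adjusted p 0.0431, limma). Without lettered knockout a neither was called, at 1.82 for Lpl (adjusted p 0.127, limma; 0.0105 to 0.331 over the alternatives) and 0.36 for Hacd4 (adjusted p 0.184; 0.0245 to 0.315). Lpl was called in 10 of 20 alternatives and Hacd4 in 5 of 20, and the calls over the whole array fell from 1938 to 409 without that array.

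By role, 0 of 14 regulators of SREBP were called (limma; 1 at an unadjusted p under 0.05), with 11 changes below 0 and a median of -0.07; this list holds Srebf2, Scap, Insig1 and the liver X receptors. Among them Srebf2 gave -0.15, Scap -0.08, Insig1 -0.15 and Nr1h3 -0.03, none of them called. Of the 14 regulators 3 lay above 0, and the smallest adjusted p of the list was 0.137 (limma). Of 7 genes of precursor supply 0 were called (1 at an unadjusted p under 0.05), of 17 other elongases and desaturases 1, of 16 genes of acyl-CoA and glycerolipid synthesis 0 (5 at an unadjusted p under 0.05) and of 6 genes of lipid uptake and binding 1, all by limma. In each of the other comparisons of knockouts with controls and of 4PBA with none, 0 of the 60 genes were called by limma. An unadjusted p under 0.05 was reached by 6 in Derlin-1 knockouts with 4PBA (9.82% of all probes), by 1 in Derlin-2 knockouts with vehicle (6.96%) and by 4 with 4PBA (4.98%). For 4PBA against none it was reached by 0 in Derlin-1 controls (2.25% of all probes), 1 in Derlin-1 knockouts (5.37%), 2 in Derlin-2 controls (6.32%) and 5 in Derlin-2 knockouts (7.67%).

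**Figure D5:**
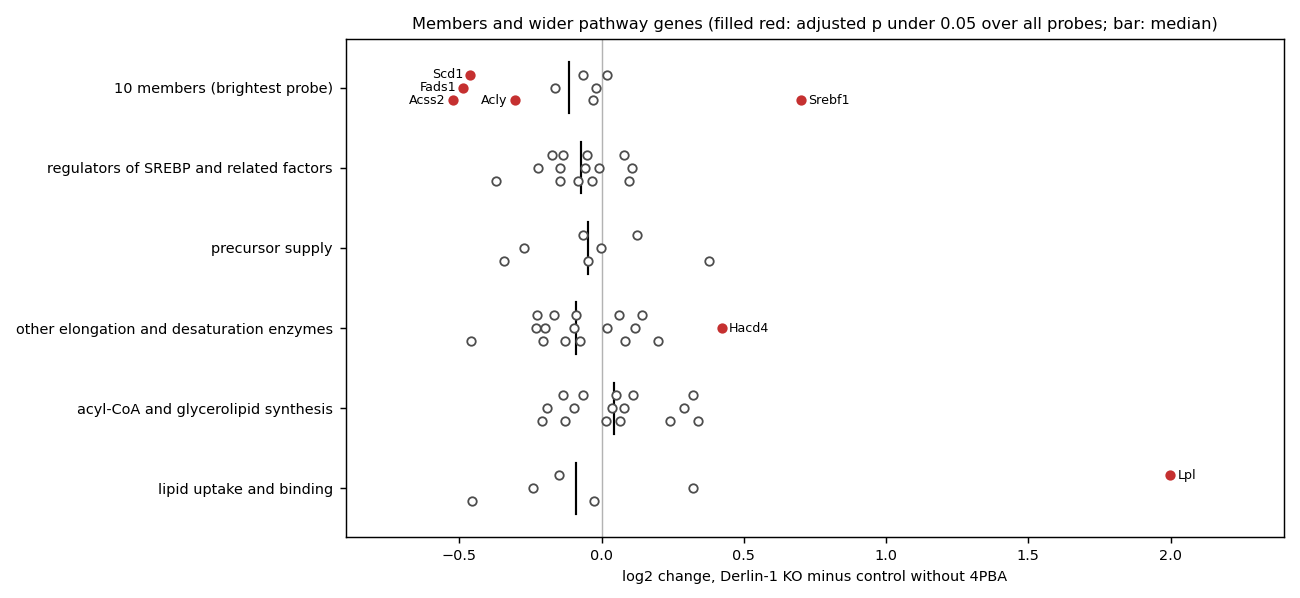
The log2 change in Derlin-1 knockouts without 4PBA is plotted for the 10 genes (brightest probe) and for 5 lists of the wider pathway; filled red points have an adjusted p under 0.05 over all probes, and bars are medians. Srebf1, Hacd4 and Lpl lie to the right of 0, and Acly, Acss2, Scd1 and Fads1 to the left, while the medians of the 5 lists lie between -0.09 and 0.04.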

How the data were processed

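Total RNA of whole cerebellum was labelled with Cy3 and hybridised to 24 Agilent arrays. Spots were read with Agilent Feature Extraction 10.7.1.1, per the submitters' processing notes. The value used for each spot was the deposited processed signal, a linear intensity that the authors' software had corrected for background, per the file headers; no normalization between arrays is recorded there. The authors' series table, also linear intensity, matched it within 1.74e-06 on the log2 scale for probes with a single spot, and served as an alternative. The log2 of each deposited intensity was taken and the 75th percentile of its array, which ran from 890 to 1169, was subtracted. Control spots and outlier flags (52 to 637 spots per array) were left out, spots of a probe were averaged, and a probe was kept where some group had it well above background on both its arrays. Replicate arrays correlated at 0.983 to 0.991.

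All kept probes were fitted with limma 3.58.1 in R 4.3.3 (1 mean per group, 24 arrays, 12 residual degrees of freedom) with Benjamini-Hochberg adjustment over all probes, and called at 0.05. The fit was tested on simulated data with known changes in the comparison of Derlin-1 knockouts without 4PBA (5 draws). It called 25 to 35% of the log2 changes of 0.5 and 62 to 70% of those of 1. A change of 0.5 was thus missed more often than found. Every probe of the 10 genes was named, with the 5 genes most alike in level, the called genes of the wider lists and some uncalled regulators of SREBP. The members and lists were chosen with earlier results of these data known; 1 gene of the wider lists is not reported here and is in none of their counts. Alternatives were quantile and median scaling, normexp background correction on the median signal, the series table, filters, 1 probe per gene, the series apart, a replicate block and leaving out arrays. Promoter windows came from RefSeq, and no genome was used.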

Additional observations from a re-analysis of the deposited data

How the results depend on the processing

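In Derlin-1 knockouts without 4PBA, where 6 of 17 probes were called, the count was 3 with median scaling, 1 with dim probes kept, 0 in a fit of the 8 arrays compared, 0 in the numbered series alone, 0 in the lettered series alone, and 0 without both lettered arrays a (chosen after seeing the data). Leaving out 1 array gave 0 to 6. Over all probes, 1311 were called with median scaling, 1069 with dim probes kept, 443 in the fit of the 8 arrays, 9 and 237 in the numbered and lettered series alone and 5 without both lettered arrays a, against 1938. Leaving out 1 array gave 409 to 3343. Fewer arrays were used for the change or its spread in all but median scaling and dim probes, for which the cause was not tested. The replicate block also gave 6; deviations of same-numbered arrays correlated at -0.21 to 0.65 over 18 pairs, 8 of them over 0.1 and the highest between lettered controls with and without 4PBA. Same-numbered arrays of 1 genotype on a slide share a slide column. Not every pair passed 0.1, so the numbers were not taken as pairs. With 4PBA, leaving out 1 array moved the count from 0 in Derlin-1 knockouts, in Derlin-2 knockouts and for 4PBA in Derlin-2 knockouts. Each such fit leaves a lone array in a group, whose spread is taken from the other groups. Normexp on the median signal, chosen after seeing the data because the files used here held no mean signal, called 1 probe, Fads2, in Derlin-2 knockouts with 4PBA (-0.62, adjusted p 0.0453, limma; 0.0453 to 0.782 over the alternatives). The other counts of 0 did not change in any alternative run. None of the 24 single-probe changes with an unadjusted p under 0.05 reversed. They were picked by that p on the same arrays, which makes a reversal unlikely beforehand. The other 180 values took the other sign in 285 of 2997 refits. Median scaling shifted the median of all probes by -0.17 for 4PBA in Derlin-2 controls, by -0.25 in Derlin-2 knockouts and by -0.18 for the lettered against the numbered series.

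With 2 arrays a group the number of arrays limits the precision. The Acaca probe A_55_P2084703 was well above background on only 9 arrays.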
